A study of Mus musculus with 24 samples.

Results

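Alad and Hdhd3 lie next to each other on mouse chromosome 4 and were compared between C57BL/6J (B6) and DBA/2J (D2) mice. They were taken by symbol, as 2 of the 33902 gene symbols in the single-nucleus RNA sequencing (snRNA-seq) count table. Of the 300819 peaks in the single-nucleus ATAC sequencing (snATAC-seq) table, which counts fragments from open chromatin, 4 fell within 2 kb of either gene. Ventral hippocampus came from untreated inbred adult males of 10 to 16 weeks, with no engineered allele in either strain. Tissue of about 2 animals was pooled per library, and each assay had 2 libraries per strain, so every comparison was of 2 D2 with 2 B6 libraries, which differ in pooled animals and in library preparation. The RNA counts were available for 17 cell types and the ATAC counts for 15.

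Alad encodes delta-aminolevulinate dehydratase, also called porphobilinogen synthase, a zinc-dependent cytosolic enzyme that carries out the second step of haem synthesis. Haem is made in every nucleated cell for cytochromes and other haem proteins, and in greatest amount by erythroid precursors. The enzyme is the classical target of lead, which displaces its zinc. Hdhd3 encodes a member of the haloacid dehalogenase-like hydrolases, a large family that includes many phosphatases, and its substrate is not well established. DBA/2J is known to carry a duplication of this locus. Copy number was not measured in these libraries, and reads of both strains were placed on mm10 coordinates, with only single-base variants of D2 exchanged. The number of copies and the signal per copy therefore cannot be told apart in any value below.

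In the GENCODE annotation of mm10 (GRCm38), Alad (ENSMUSG00000028393.10) spanned chr4:62509169-62519918 and Hdhd3 (ENSMUSG00000038422.2) spanned chr4:62499008-62503467. Both were on the minus strand, separated by 5701 bases, and 0 other annotated genes overlapped them. The reference sequences before their RefSeq starts (GRCm38.p6, minus strand, 5′ to 3′) are shown because each promoter lay in a peak that differed between the strains. The stretch of Hdhd3 was cut to the 174 bases farthest from its RefSeq start at 62502200, as annotated exon sequence lay next to that start. These 174 bases lie inside the GENCODE span of Hdhd3. Capitals mark the motifs found, and these are the B6 letters, not those of D2.
Alad, chr4:62520064-62520313: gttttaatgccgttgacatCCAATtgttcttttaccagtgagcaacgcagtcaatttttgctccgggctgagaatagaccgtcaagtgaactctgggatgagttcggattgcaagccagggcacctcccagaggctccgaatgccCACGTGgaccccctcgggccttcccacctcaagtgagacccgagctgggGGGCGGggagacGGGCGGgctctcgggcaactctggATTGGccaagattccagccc
Hdhd3, chr4:62502277-62502450: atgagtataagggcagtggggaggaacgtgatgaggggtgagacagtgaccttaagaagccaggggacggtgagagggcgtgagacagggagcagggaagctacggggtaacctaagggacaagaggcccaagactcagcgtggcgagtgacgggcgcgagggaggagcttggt

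Both strands were searched for the GC box (spelled GGGCGG), the box named CCAAT, the E-box (spelled CACGTG), the TATA box (spelled TATAAA) and the GATA motif (spelled GATAA). The 250 bases before Alad held 2 GC boxes, 2 CCAAT boxes and 1 E-box, none overlapping another, and no TATA box or GATA motif. Among 32851 RefSeq promoters, the same 250 bases held a GC box in 32.7%, the box CCAAT in 33.8%, an E-box in 6.02%, a TATA box in 12.4% and a GATA motif in 22.6%. The 174 bases kept for Hdhd3 held 0 of these motifs, but the bases next to its start were not searched. Stretches at the same position held them in 20.04%, 23.9%, 3.52%, 8.19% and 17.5% of promoters, in the same order. GC content was 58.4% before Alad and 60.3% before Hdhd3. The Alad peak covered 198 of its 250 bases and the Hdhd3 peak covered all 174.

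The RNA libraries held 43048686 to 56452272 counts and the ATAC libraries 90684494 to 122322471 counts. Nuclei numbered 16565 in B6 and 14315 in D2 for RNA, and 12255 and 14951 for ATAC. Of 54 marker entries, in which Prox1 and Reln each stand under 2 cell types, 47 were highest in the cell type whose label they mark, and the exceptions were mainly among interneuron classes. Non-neuronal nuclei made up 33.8% of B6 and 33.2% of D2 nuclei in RNA, but 2.15% and 2.07% in ATAC, where these types were thinly sampled. Counts for 8204 symbols were found only in D2 and for 960 only in B6, so shares of genes called are given for all genes and, where stated, for genes with counts in both strains.

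Summed over all nuclei, both genes were almost 4-fold higher in D2 than in B6. Levels are in CPM, a count relative to the library total over the features tested, here with TMM scaling, which assumes most genes do not change. Alad stood at 3.86 and 3.67 CPM in B6 against 13.9 and 14.8 CPM in D2, from 205, 205, 726 and 653 counts. Hdhd3 stood at 1.04 and 1.503 CPM in B6 and at 4.66 and 4.87 CPM in D2, from 55, 84, 243 and 215 counts. The strains did not overlap for either gene, and the gap was far wider than the spread within a strain. The fold of D2 over B6 was 3.81 for Alad (log2 fold 1.93 ± 0.12 SE, edgeR adjusted p = 3.77e-09). It was 3.73 for Hdhd3 (log2 fold 1.90 ± 0.19 SE, edgeR adjusted p = 8.87e-07). Approximate 95% intervals were 3.25 to 4.46 for Alad and 2.89 to 4.82 for Hdhd3.

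A difference called higher in D2 was common in this comparison, with 30.7% of 25728 genes tested at an adjusted p under 0.05, and 16% called lower. Among the 21475 tested genes with counts in both strains, 15.5% were called higher. Of those 21475 genes, 285 were called with a fold at least as large as that of Alad, and 292 with a fold at least as large as that of Hdhd3. Per 1000 nuclei, 24.8 Alad counts were found in B6 and 96.3 in D2, and 8.39 and 31.99 Hdhd3 counts.

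The ratio of Alad to Hdhd3 counts was compared within each library, since gene length then cancels between strains. On the log2 scale it came to 1.90 and 1.29 for B6 and 1.58 and 1.60 for D2. The D2 values lay between the B6 values, and the mean difference was -0.0018 (exact two-sided permutation test, p = 1, where 2 against 2 libraries cannot go below 0.333).

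By cell type, Alad passed the count filter in 14 of 17 types and was called higher in D2 in 13 of them, lower in 0. In Exc-DG, the dentate granule cells, it was at 3.50 and 2.74 CPM in B6 and at 12.1 and 12.96 CPM in D2. In Exc-CA3, pyramidal cells of the CA3 field, it was at 4.81 and 1.89 against 15.03 and 14.7 CPM. The D2 libraries of both types were close together, while the B6 libraries of Exc-CA3 differed 34 to 11 in counts. The log2 fold was 2.00 ± 0.20 SE in Exc-DG (edgeR adjusted p = 1.89e-06), where 22.2% of genes tested were called higher in D2. In Exc-CA3 it was 2.09 ± 0.29 SE (edgeR adjusted p = 1.87e-05), with 19.2% of genes called higher.

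The 3 CA1 pyramidal types showed the same direction. Exc-CA1-Galntl6 had Alad at 4.50 and 3.70 CPM in B6 and 12.9 and 16.3 CPM in D2. Exc-CA1-Fras1 had 3.15 and 2.88 against 12.5 and 17.6 CPM, and Exc-CA1-Camk2d had 3.04 and 4.58 against 17.4 and 15.5 CPM. Every D2 library lay above both B6 libraries in each of these types. Their log2 folds were 1.81 ± 0.22, 2.28 ± 0.32 and 2.07 ± 0.31 SE, with edgeR adjusted p of 6.03e-06, 3.27e-06 and 0.000249. Genes called higher in D2 made up 20.9% of those tested in Exc-CA1-Galntl6, 16.1% in Exc-CA1-Fras1 and 12% in Exc-CA1-Camk2d.

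Among the other excitatory types, the Exc-ENT cells had Alad at 2.89 and 4.56 CPM in B6 and 10.8 and 16.6 CPM in D2. Exc-Gpc6 had 3.24 and 3.91 against 12.4 and 10.2 CPM. Exc-Cdh12 had 1.97 and 1.92 against 13.3 and 15.6 CPM, from only 1 and 2 counts in the B6 libraries. Strains were separate in all 3 types, and Exc-Cdh12 had the largest log2 fold for Alad, 2.79 ± 0.58 SE (edgeR adjusted p = 0.0060, 5.03% of genes called higher). The log2 fold was 1.84 ± 0.31 SE in Exc-ENT (edgeR adjusted p = 8.41e-06, 16.4% called higher). It was 1.65 ± 0.41 SE in Exc-Gpc6 (edgeR adjusted p = 0.0023, 10.9% called higher).

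In interneurons, Inh-MGE cells, which derive from the medial ganglionic eminence, had Alad at 5.42 and 5.67 CPM in B6 and 18.3 and 16.9 CPM in D2. Inh-CGE cells, from the caudal ganglionic eminence, had 4.38 and 3.29 against 18.1 and 22.1 CPM. Inh-Lamp5 cells had 2.10 and 7.31 against 18.5 and 17.4 CPM, with the B6 libraries resting on 2 and 8 counts. The strains were separate in each class. The log2 fold was 1.66 ± 0.26 SE in Inh-MGE (edgeR adjusted p = 0.000132, 13.2% called higher) and 2.36 ± 0.37 SE in Inh-CGE (edgeR adjusted p = 8.75e-05, 9.06% called higher). In Inh-Lamp5 it was 1.85 ± 0.48 SE (edgeR adjusted p = 0.0077, 6.45% called higher).

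In glia, astrocytes (NN-Astro) had Alad at 3.16 and 4.29 CPM in B6 and 12.6 and 16.6 CPM in D2. Oligodendrocyte precursors (NN-OPC) had 2.20 and 5.68 against 15.0 and 7.92 CPM. Oligodendrocytes (NN-ODC) had 5.11 and 4.51 against 15.0 and 7.14 CPM, and the D2 libraries of both oligodendrocyte-lineage types were far apart. The log2 fold was 1.96 ± 0.33 SE in NN-Astro (edgeR adjusted p = 7.53e-06, 14.5% called higher) and 1.45 ± 0.49 SE in NN-OPC (edgeR adjusted p = 0.0238, 8.9% called higher). In NN-ODC it was 1.19 ± 0.43 SE and did not pass (edgeR adjusted p = 0.0541, 10.1% called higher). Microglia, Cajal-Retzius cells and vascular and leptomeningeal cells (NN-MGC, CR-CR and NN-VLMC) were not tested, with 3, 2 and 6 Alad counts in B6 and 12, 5 and 21 in D2.

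Calls in the smaller types rested on few counts. With DESeq2 in place of edgeR, Alad was called in 9 types, and without D2 library 2 in 8. In Exc-CA3 the log2 fold was 2.96 without B6 library 2 and 1.62 without B6 library 3, and the call held. Without B6 library 3 it was 3.003 in Inh-Lamp5 and 2.30 in NN-OPC, and both types lost their call without any one of the other libraries. The Exc-Gpc6 call was lost without D2 library 2, that of Inh-CGE without either D2 library, and that of Exc-Cdh12 without B6 library 3 or either D2 library. In NN-ODC the log2 fold was 0.58 without D2 library 2 and 1.65, past the threshold, without D2 library 3. The fold per nucleus, which is not corrected for sequencing depth per nucleus, was 3.93 in Exc-DG, 3.96 in NN-Astro and 2.37 in NN-ODC.

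**Figure D1:**
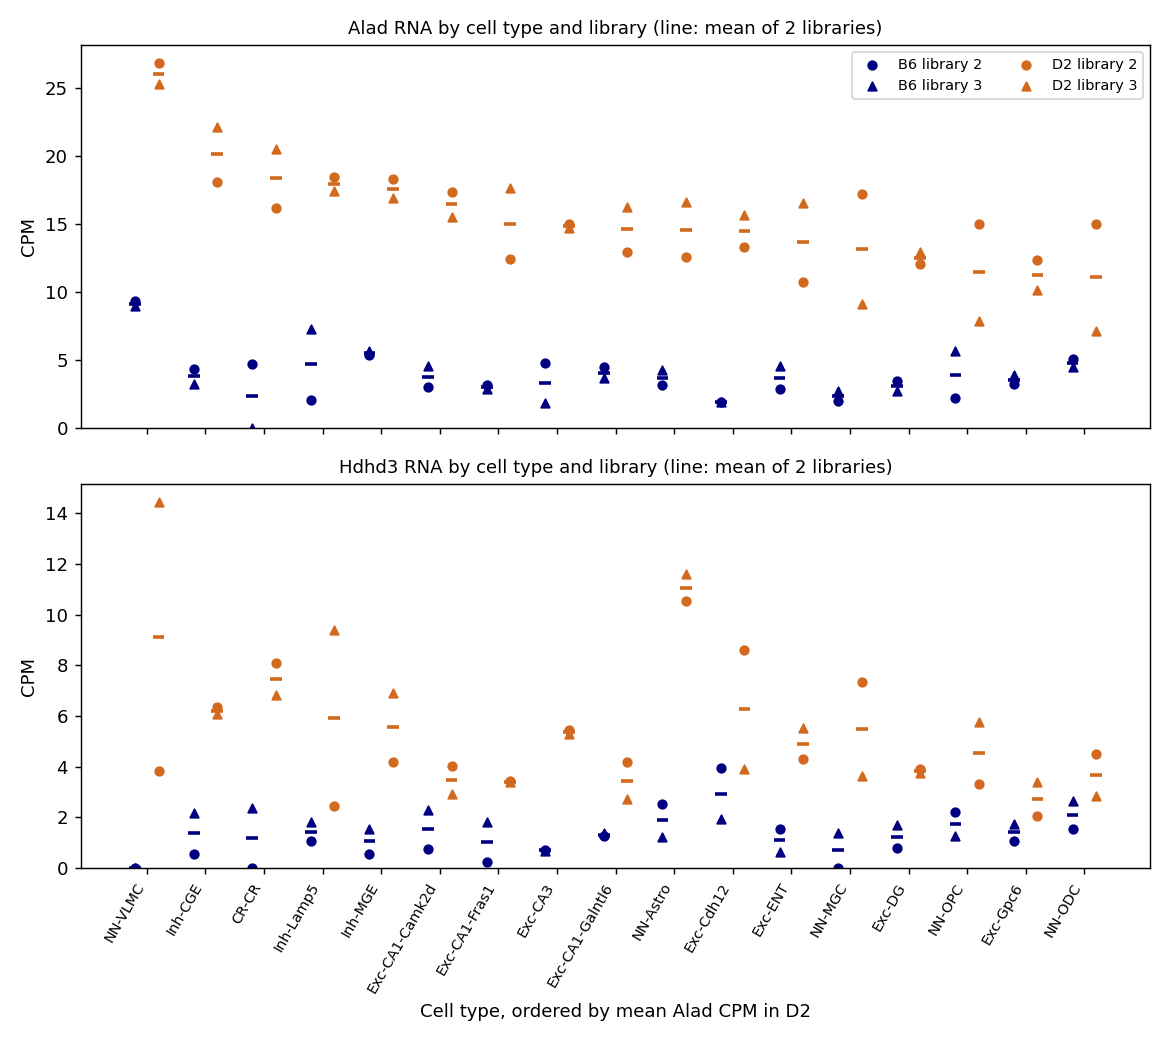
Alad (top) and Hdhd3 (bottom) RNA in CPM for each of the 17 cell types and 4 libraries. Points are libraries and short lines are the means of 2 libraries. The D2 libraries of Alad lie above the B6 libraries in every type, and the D2 mean is lowest in NN-ODC at 11.1 CPM, above the highest B6 mean of 9.14 CPM in NN-VLMC.

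Counting libraries, D2 was above B6 without overlap in 17 of 17 types for Alad and in 16 of 17 for Hdhd3, untested types included. Of these, 3 types for Alad and 7 for Hdhd3 were not tested. Every tested type, 14 for Alad and 9 for Hdhd3, had this arrangement. Over all pairs of gene and cell type tested, 31.7% showed this arrangement. In D2 the mean Alad level was highest in NN-VLMC at 26.0 CPM and next highest in Inh-CGE at 20.1 CPM, and the libraries of these types did not overlap. From Inh-CGE down to NN-ODC, the libraries of each type overlapped those of the next in order. The B6 means ran from 9.14 CPM in NN-VLMC through 5.54 CPM in Inh-MGE and 4.81 CPM in NN-ODC, each separate from the next. Below those, neighbours in order overlapped, except Exc-CA1-Fras1 (3.02 CPM) and NN-MGC (2.40 CPM), down to 1.95 CPM in Exc-Cdh12.

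Hdhd3, with fewer counts than Alad in nearly every type, passed the filter in 9 of 17 types and was called higher in D2 in 8, lower in 0. Astrocytes had it at 2.53 and 1.23 CPM in B6 and 10.5 and 11.6 CPM in D2. Exc-CA3 had it at 0.708 and 0.686 CPM in B6 and 5.43 and 5.29 CPM in D2. Exc-DG had 0.779 and 1.68 against 3.91 and 3.74 CPM. The strains were well apart in these types. Log2 folds were 2.55 ± 0.40 SE in NN-Astro (edgeR adjusted p = 2.41e-06) and 2.90 ± 0.41 SE in Exc-CA3 (edgeR adjusted p = 1.95e-05). The log2 fold in Exc-DG was 1.61 ± 0.35 SE (edgeR adjusted p = 0.0020).

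Exc-ENT cells had Hdhd3 at 1.56 and 0.651 CPM in B6 and 4.30 and 5.52 CPM in D2. Inh-MGE cells had 0.570 and 1.55 against 4.20 and 6.90 CPM, and Inh-CGE cells had 0.548 and 2.19 against 6.34 and 6.08 CPM. Both D2 libraries were above both B6 libraries in each. The log2 folds were 2.11 ± 0.47, 2.28 ± 0.51 and 2.13 ± 0.57 SE, with edgeR adjusted p of 0.000415, 0.0033 and 0.0143.

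Among CA1 cells, Exc-CA1-Galntl6 had Hdhd3 at 1.25 and 1.37 against 4.17 and 2.71 CPM, and Exc-CA1-Fras1 had 0.225 and 1.83 against 3.42 and 3.40 CPM. Exc-CA1-Camk2d had 0.761 and 2.29 against 4.02 and 2.93 CPM. The first pair had log2 folds of 1.40 ± 0.37 and 1.78 ± 0.55 SE (edgeR adjusted p = 0.0077 and 0.0167). In Exc-CA1-Camk2d it was 1.09 ± 0.51 SE and did not pass (edgeR adjusted p = 0.171).

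The 8 types in which Hdhd3 was not tested had 0 to 10 counts in the B6 libraries together. In NN-VLMC there were 0 counts in both B6 libraries and 2 and 4 in D2. Exc-Cdh12, with 3.94 and 1.92 against 8.61 and 3.91 CPM, was the type in which the strains overlapped. The mean D2 level was highest in NN-Astro at 11.1 CPM, followed by NN-VLMC at 9.13 CPM, whose libraries stood at 3.83 and 14.4 CPM. With DESeq2, Hdhd3 was called in 3 types, and without either D2 library in 5. Without B6 library 3 its log2 fold was 2.28 in Exc-DG, 3.16 in Inh-MGE, 3.74 in Exc-CA1-Fras1 and 3.36 in Inh-CGE, and without B6 library 2 it was 3.15 in NN-Astro, 2.83 in Exc-ENT, 0.88 in Exc-CA1-Fras1 and 1.48 in Inh-CGE. The Inh-CGE call was lost without any one library, that of Exc-CA1-Fras1 without any but B6 library 3, that of Exc-CA1-Galntl6 without D2 library 2 and that of Inh-MGE without D2 library 3.

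**Figure D2:**
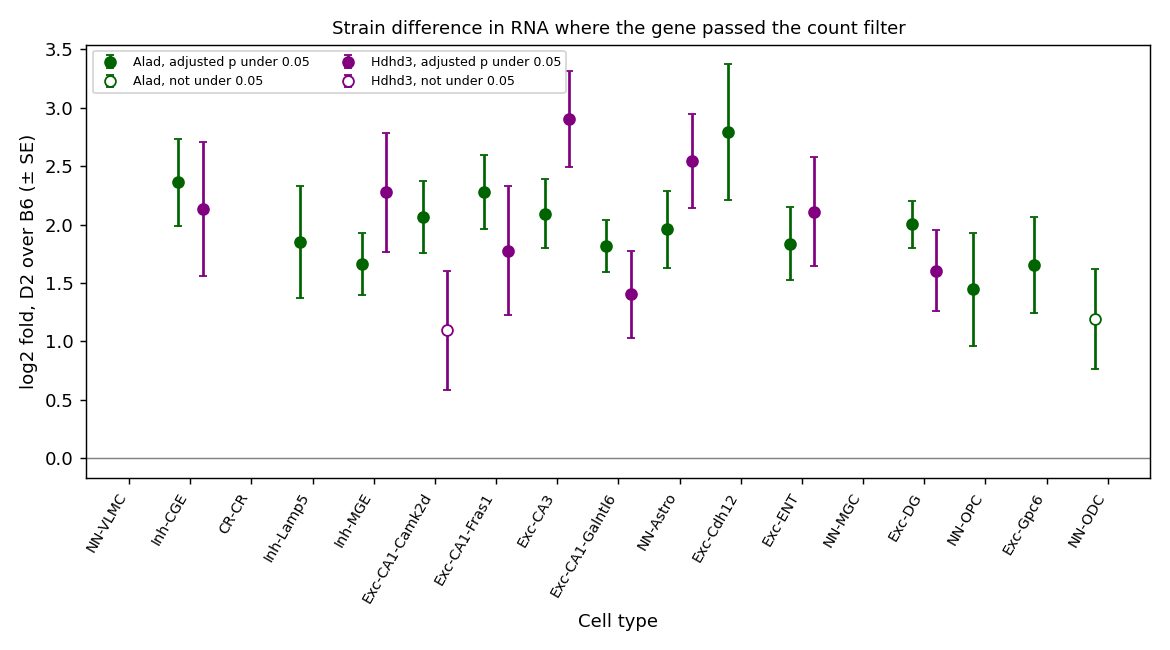
Log2 fold of D2 over B6 with its SE for Alad (green) and Hdhd3 (purple) in the cell types where the gene passed the count filter. Filled points had an edgeR adjusted p under 0.05, and folds run from 1.19 to 2.79 for Alad and from 1.09 to 2.90 for Hdhd3.

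Whether the strain difference itself differed between classes of cells was tested with counts summed per class. Hdhd3 was at 0.875 and 1.46 CPM in B6 neurons and 1.95 and 1.63 CPM in B6 non-neuronal cells, and at 4.28 and 4.37 against 7.08 and 7.93 CPM in D2, here scaled to the class total alone. So in both strains the non-neuronal libraries were above the neuronal ones, a difference in level that was not tested. In D2, NN-Astro held 36 and 42 of the 51 and 60 non-neuronal Hdhd3 counts. With TMM scaling, NN-ODC in D2 was at only 4.50 and 2.86 CPM. Alad was at 3.82 and 3.43 CPM in B6 neurons and 3.62 and 4.78 CPM in B6 non-neuronal cells, and at 13.9 and 15.8 against 14.2 and 12.3 CPM in D2.

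The log2 fold of Alad in non-neuronal cells minus that in neurons was -0.29 ± 0.25 SE (95% interval -0.79 to 0.20, edgeR adjusted p = 0.667). For Hdhd3 it was 0.30 ± 0.38 SE (-0.44 to 1.05, edgeR adjusted p = 0.844), and -0.27 without B6 library 3. For inhibitory minus excitatory neurons it was -0.09 ± 0.24 SE for Alad (-0.56 to 0.37, edgeR adjusted p = 1) and 0.50 ± 0.48 SE for Hdhd3 (-0.44 to 1.43, edgeR adjusted p = 0.859). No difference between classes was detectable at this depth, and the intervals leave room for a change of more than 2-fold for Hdhd3 between classes.

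Open chromatin over the genes was about 3-fold higher in D2. The Hdhd3 promoter peak, chr4:62501507-62502658, was at 16.8 CPM in both B6 libraries, against 56.0 and 53.6 CPM in D2. The Alad promoter peak, chr4:62519241-62520261, was at 16.0 and 15.9 CPM in B6 and at 51.0 and 50.0 CPM in D2. Replicate libraries were nearly identical at both promoters, and the strains were far apart. Their log2 folds were 1.71 ± 0.05 SE (edgeR adjusted p = 3.37e-41) and 1.66 ± 0.05 SE (edgeR adjusted p = 4.23e-40).

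A smaller peak at the 3′ end of Alad, chr4:62508894-62509194, covered 26 bases of its last exon and otherwise lay between the genes. It stood at 1.70 and 1.78 CPM in B6 and 4.73 and 5.42 CPM in D2. The last of the 4 peaks, chr4:62495960-62497323, lay within 2 kb of the end of Hdhd3 and covered 1301 exonic bases of Bspry, with 6.89 and 7.27 CPM in B6 and 22.2 CPM in both D2 libraries. Log2 folds were 1.55 ± 0.12 SE (edgeR adjusted p = 4.31e-18) and 1.65 ± 0.07 SE (edgeR adjusted p = 3.29e-33). So 4 of the 4 peaks were called higher, where 5.49% of the 300819 peaks tested were called higher and 5.53% lower.

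The higher signal did not stop at the genes but had sharp edges. Another peak beyond the 4, chr4:62494970-62495371 in an intron of Bspry, was at 0.623 and 0.935 CPM in B6 and 2.44 and 2.57 CPM in D2 (log2 fold 1.68 ± 0.16 SE, edgeR adjusted p = 5.13e-14). The next peak out, chr4:62494092-62494339 in the preceding intron of Bspry, was at 0.875 and 0.782 CPM in B6 and 0.668 and 0.757 CPM in D2 (log2 fold -0.21 ± 0.19 SE, edgeR adjusted p = 0.593). On the other side, the first peak beyond Alad, chr4:62524460-62525629 at the starts of Pole3 and 4933430I17Rik, was at 31.9 and 30.3 CPM in B6 and 34.8 and 33.8 CPM in D2 (log2 fold 0.14 ± 0.05 SE, edgeR adjusted p = 0.0669).

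Thus 5 neighbouring peaks were higher by 2.93-fold to 3.26-fold, with no peak between them that was not. They spanned 25.3 kb, from 62494970 to 62520261, and the gap between the uncalled peaks on either side was 30.1 kb. Summed over the 5 peaks, the libraries stood at 42.0 and 42.7 CPM in B6 and 136 and 134 CPM in D2, a ratio of 3.19. The extent was set from these values and carries no test of its own.

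The reference letters on the plus strand at the Bspry edge are given because the strain difference began between these peaks, the first outside and the second inside. Nothing is capitalised, as no motif was searched, and of the second peak the central 300 bases are shown.
Outside, chr4:62494092-62494339: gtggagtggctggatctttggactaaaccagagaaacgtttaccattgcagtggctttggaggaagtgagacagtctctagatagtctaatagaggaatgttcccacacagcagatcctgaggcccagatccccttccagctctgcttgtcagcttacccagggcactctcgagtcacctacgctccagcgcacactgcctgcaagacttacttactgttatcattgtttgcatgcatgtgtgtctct
Inside, chr4:62495021-62495320: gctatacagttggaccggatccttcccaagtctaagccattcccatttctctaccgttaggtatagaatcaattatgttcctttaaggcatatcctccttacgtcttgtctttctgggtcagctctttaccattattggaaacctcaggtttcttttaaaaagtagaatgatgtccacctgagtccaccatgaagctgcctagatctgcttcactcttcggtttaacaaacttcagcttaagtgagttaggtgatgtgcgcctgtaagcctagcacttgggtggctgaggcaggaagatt

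**Figure D3:**
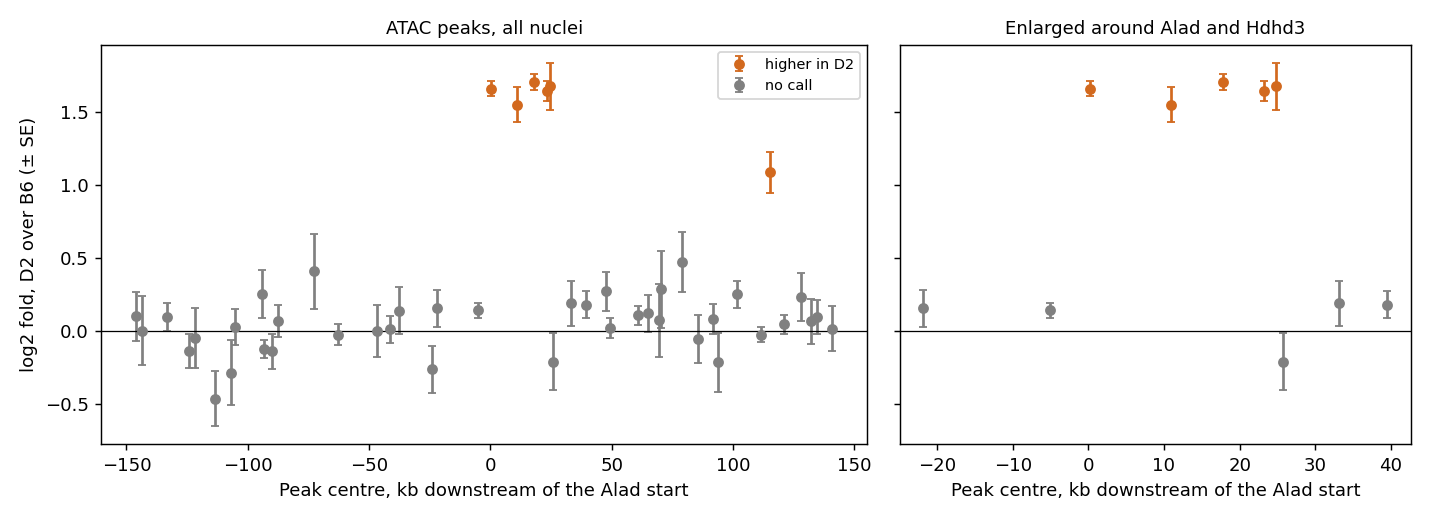
Log2 fold of D2 over B6 with its SE for each ATAC peak, against the distance of its centre downstream of the Alad start in kb (left, 150 kb on each side, right, enlarged). The 5 peaks from 0.167 to 24.7 kb lie between 1.55 and 1.71, while the peaks on either side of them, at -5.13 and 25.7 kb, lie at 0.14 and -0.21.

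Of the 127 other peaks within 500 kb, 12 were called higher and 4 lower. Over all peaks tested, 5.49% were called higher and 5.53% lower, and whether the 127 differed from these shares was not tested. Their median log2 fold was 0.06, against 0.0016 over all peaks tested. Only 4 of these 127 were called higher by more than 2-fold. The nearest was chr4:62404551-62405070 in Cdc26, at 1.19 and 1.38 CPM in B6 and 2.66 and 2.81 CPM in D2 (log2 fold 1.09 ± 0.14 SE, edgeR adjusted p = 2.67e-09). Across the genome, 1388 peaks, or 0.461% of those tested, were called with a log2 fold at least as large as the smallest of the 5.

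Summed over the 5 peaks, the signal was also higher in D2 in each cell type. The ratio of D2 over B6 ran from 2.50 in Exc-Cdh12 to 4.56 in NN-OPC, with a median of 3.18 over 15 types, and both D2 libraries were above both B6 libraries in 15 of 15. In Exc-DG the summed level was 44.0 and 44.4 CPM in B6 and 142 and 138 CPM in D2. In Exc-CA3 it was 42.2 and 39.4 against 138 and 138 CPM, and in NN-Astro 106 and 106 against 280 and 301 CPM. Each CPM is relative to the peaks tested in its type, 28549 in NN-OPC and 39351 in NN-Astro but 297387 in Exc-DG. Levels of these glial and neuronal types are therefore not comparable here, and no difference in level between them was tested. NN-OPC, with the largest ratio, had 24 counts in B6 and 157 in D2.

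Single peaks did not all show this in every type. For the 4 peaks within 2 kb of the genes, 42 of the 60 pairs of peak and cell type were called higher and 55 were tested. For the Hdhd3 promoter the count was 14 of 15 types, the exception being NN-ODC (log2 fold 1.40 ± 0.42 SE, edgeR adjusted p = 0.361). For the Alad promoter it was 13 of 15, the exceptions being NN-MGC (1.71 ± 0.46 SE, edgeR adjusted p = 0.0919) and NN-OPC (1.55 ± 0.43 SE, edgeR adjusted p = 0.685). The peak within 2 kb of the end of Hdhd3 was called in 10 of 15 types, and the peak at the 3′ end of Alad in 5 of the 10 where it was tested. The Bspry intron peak inside the run was called in 5 of 10, and in Exc-Cdh12 its libraries overlapped, at 1.26 and 2.32 CPM in B6 and 1.92 and 1.76 CPM in D2 (log2 fold -0.13 ± 0.93 SE). D2 was above B6 without overlap in 15 of 15 types for both promoters. With untested types included, it was so in 11 for the 3′ peak of Alad and in 10 for the Bspry intron peak. In Exc-DG the promoter log2 folds were 1.71 ± 0.07 SE for Hdhd3 and 1.63 ± 0.08 SE for Alad, close to the 1.80 ± 0.08 and 1.67 ± 0.08 SE of Exc-CA3.

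The peak at the 3′ end of Alad stood out by cell type. Its level in Exc-DG was 3.60 and 4.89 CPM in B6 and 12.5 and 14.1 CPM in D2. In Exc-CA3 it was 1.11 and 1.25 against 4.74 and 5.05 CPM, and in Exc-CA1-Galntl6 0.979 and 0.943 against 3.43 and 2.33 CPM. The Exc-DG libraries were thus above those of these types in both strains, a difference in level that was not tested. At the Alad promoter peak the types lay closer together in B6, at 15.7 and 15.8 CPM in Exc-DG, 14.8 and 13.3 CPM in Exc-CA3 and 13.7 and 14.1 CPM in Exc-CA1-Galntl6. The strain log2 fold of the 3′ peak was 1.67 ± 0.13 SE in Exc-DG. Inh-CGE had the lowest, with overlapping libraries at 2.69 and 3.02 CPM in B6 and 4.99 and 2.81 CPM in D2 (log2 fold 0.45 ± 0.52 SE, edgeR adjusted p = 0.927).

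Background shares for peaks were small. Peaks called higher in D2 were 3.39% of those tested in Exc-DG, 2.6% in Exc-CA3, 2.52% in Exc-CA1-Galntl6, 1.26% in Exc-CA1-Camk2d, 1.16% in Exc-Gpc6 and 1.11% in Exc-CA1-Fras1. They were 0.645% in Exc-ENT, 0.436% in Inh-MGE, 0.231% in Exc-Cdh12, 0.143% in Inh-Lamp5 and 0.129% in Inh-CGE. In glia they were 0.0991% in NN-Astro, 0.0657% in NN-MGC, 0.0458% in NN-ODC and 0.0245% in NN-OPC. D2 was above B6 without overlap for 20.9% of all pairs of peak and cell type tested.

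**Figure D4:**
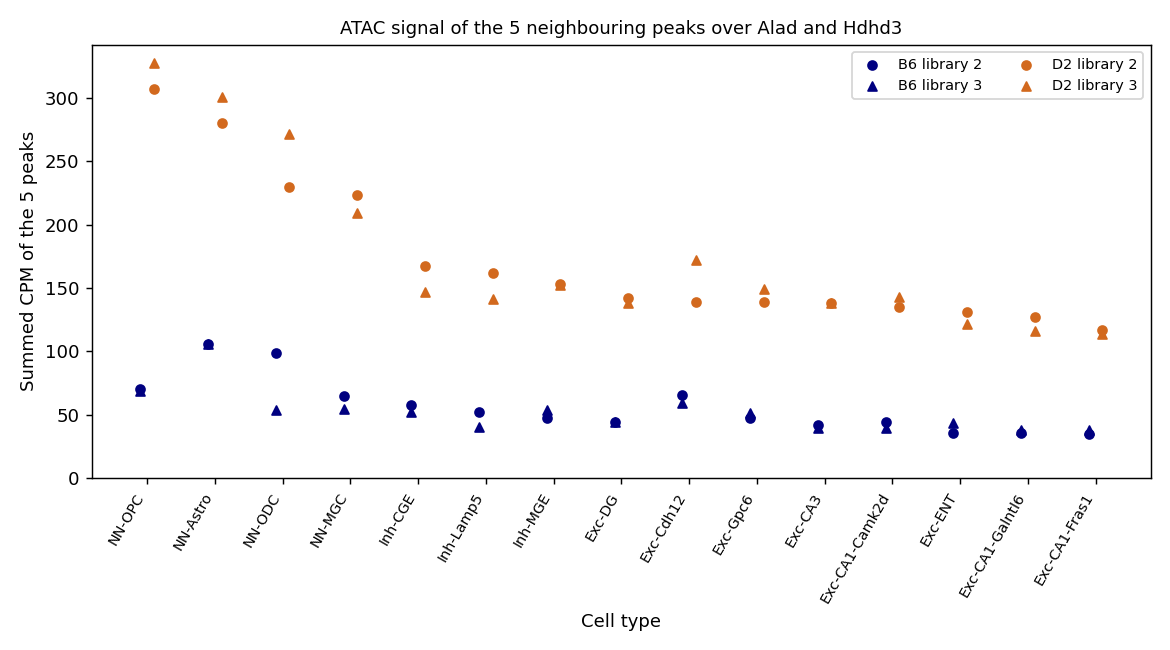
Summed CPM of the 5 neighbouring ATAC peaks in each of 15 cell types and 4 libraries (points). D2 libraries lie above B6 libraries in every type, from 142 and 138 against 44.0 and 44.4 CPM in Exc-DG to 307 and 328 against 70.5 and 68.8 CPM in NN-OPC.

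Genes beyond the edges showed smaller or opposite differences in RNA. Of 28 other annotated genes within 500 kb, 17 were in the table and 14 were tested. Bspry, which codes for a B-box and SPRY domain protein and has 2329 of its 17246 bases between the outermost of the 5 peaks, was at 52 and 64 counts in B6 and 67 and 62 in D2 (log2 fold 0.33 ± 0.22 SE, edgeR adjusted p = 0.231). On the Alad side, Pole3, an accessory subunit of DNA polymerase epsilon, was at 137 and 152 counts in B6 and 186 and 173 in D2. It was called higher with a log2 fold of 0.49 ± 0.16 SE (edgeR adjusted p = 0.0181). The gene after it, 4933430I17Rik, had a log2 fold of 0.63 ± 0.30 SE and did not pass (edgeR adjusted p = 0.104).

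Further out, Zfp37, a zinc finger gene, was called higher by a log2 fold of 0.28 ± 0.09 SE (edgeR adjusted p = 0.0208). Cdc26, a subunit of the anaphase-promoting complex, was lower, with 1844 and 1883 counts in B6 and 991 and 890 in D2 (log2 fold -0.81 ± 0.08 SE, edgeR adjusted p = 8.47e-07). Cdc26 overlaps the copper transporter gene Slc31a1 on the other strand, which had a log2 fold of 0.05 ± 0.10 SE (edgeR adjusted p = 0.712). The noncoding genes Gm11209, antisense within Rgs3, and Gm11210 were lower, with log2 folds of -0.97 ± 0.25 SE (edgeR adjusted p = 0.0056) and -2.15 ± 0.67 SE (edgeR adjusted p = 0.0165). Gm11210 had 12 and 14 counts in B6 and 5 and 0 in D2. Strand use in the counting was not given in the sources used here, so reads of overlapping partners may be mixed.

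The other 6 tested neighbours did not pass, and their log2 folds lay close to 0. They were Slc31a2 (0.12 ± 0.12 SE), Fkbp15 (-0.03 ± 0.08 SE), the splicing factor Prpf4 (0.06 ± 0.10 SE), Wdr31 (0.03 ± 0.12 SE), the G-protein signalling regulator Rgs3 (0.0030 ± 0.15 SE) and Zfp618 (0.12 ± 0.08 SE). Rnf183, Gm11211 and Gm12910 had too few counts to test. With DESeq2, no neighbour was called higher and Cdc26 alone was called lower.

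**Figure D5:**
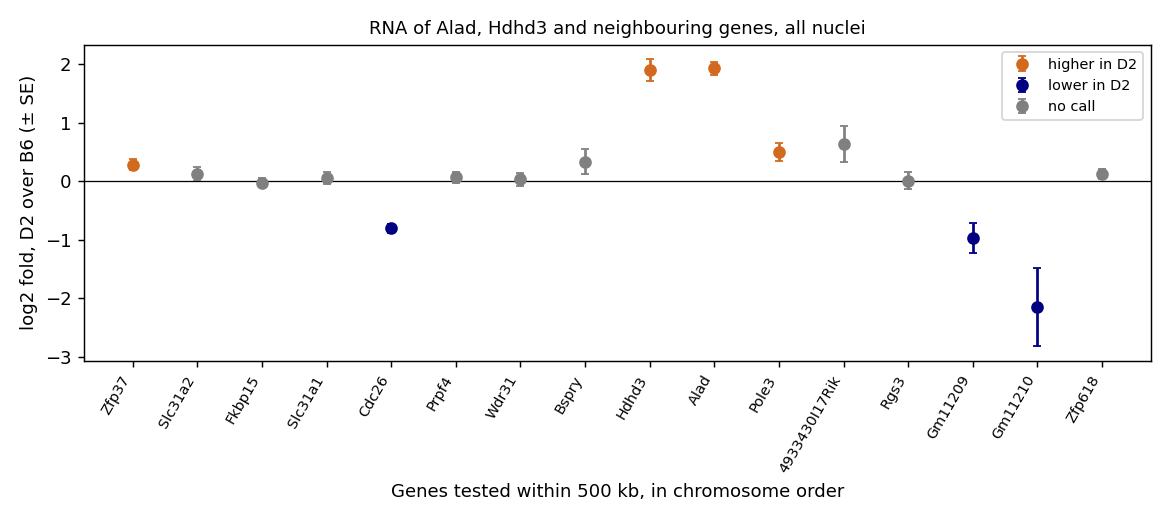
Log2 fold of D2 over B6 with its SE for the RNA of the 16 tested genes within 500 kb, in chromosome order, over all nuclei. Hdhd3 and Alad stand at 1.90 and 1.93, and the other 14 genes lie between -2.15 and 0.63.

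In the rest of haem synthesis, 2 of 7 other enzymes differed, in opposite directions. Alas1, the housekeeping form of the enzyme of the first step, had 975 and 1075 counts in B6 and 1637 and 1399 in D2 (log2 fold 0.74 ± 0.08 SE, edgeR adjusted p = 2.04e-06). Alas2, its erythroid form, had 2755 and 3224 counts in B6 and 2176 and 1689 in D2 (log2 fold -0.46 ± 0.08 SE, edgeR adjusted p = 0.000237). The other 5, all of later steps, did not pass the test. Uros was at 0.09 ± 0.10, Urod at 0.01 ± 0.16, Cpox at 0.18 ± 0.12, Ppox at -0.09 ± 0.11 and Fech, the ferrochelatase that inserts the iron, at 0.18 ± 0.08 (log2 fold ± SE). The median over the 7 was 0.09, beside 0.09 over all genes tested and 0.014 over those with counts in both strains.

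Of 24 genes of haem transport, regulation and breakdown, 7 were called higher and 1 lower, with a median log2 fold of 0.09. Abcb8, a mitochondrial transporter, rose most among these 24, by a log2 fold of 1.68 ± 0.08 SE (edgeR adjusted p = 2.80e-10). The others called higher were Slc25a37 (0.48), Tspo (0.48), Blvrb (0.46), Slc25a38 (0.38), Bach1 (0.33) and Pgrmc1 (0.26), by log2 fold. Abcb6, a porphyrin transporter, fell from 380 and 371 counts in B6 to 30 and 27 in D2 (log2 fold -3.54 ± 0.18 SE, edgeR adjusted p = 6.66e-10).

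Of the 20 other haloacid dehalogenase family genes tested, 4 were called higher and 3 lower, with a median log2 fold of 0.13. Hdhd2 fell from 1912 and 1803 counts in B6 to 104 and 92 in D2 (log2 fold -4.07 ± 0.12 SE, edgeR adjusted p = 1.00e-12). The phosphatase genes Pgp (0.52) and Pdxp (0.42), the phosphomannomutase gene Pmm1 (0.30) and the nucleotidase gene Nt5c (0.27) rose, and Psph (-0.33), of serine synthesis, and Nt5m (-0.22) fell, by log2 fold. Of 6 genes of zinc and lead handling, the zinc exporter Slc30a1 rose by 0.39 and the zinc importer Slc39a10 fell by 0.20 on the log2 scale, and the median was 0.01. Every listed gene that was tested had counts in both strains, a set in which 15.5% of genes were called higher, and whether a list differed from that share was not tested.

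Erythroid cells make haem in quantity, so their markers were read beside Alad. The 7 erythroid markers summed to 62.3 and 81.0 CPM in B6 and 48.3 and 46.8 CPM in D2, most of it Alas2, which was spread over neurons. The 4 globin genes alone summed to 6.32 and 19.2 CPM in B6 and 5.37 and 7.47 CPM in D2, and Slc4a1 had 0, 0, 0 and 3 counts. Erythroid transcripts were thus not higher in D2, and their part in the Alad values was not tested.

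The genes whose levels followed Alad most closely were sought over 64 columns, the 4 libraries of 16 cell types, among 13261 genes. By Pearson correlation of log2 (CPM + 1) they were Atp5o (r = 0.903), Babam1 (r = 0.889), Asna1 (r = 0.877), Gm38394 (r = 0.876) and Tpm3-rs7 (r = 0.864). For Hdhd3 they were Zfp949 (r = 0.796), 6330403K07Rik (r = 0.784), Stab2 (r = 0.783), Gm16268 (r = 0.783) and Atp5o (r = 0.771). The columns share libraries and strain, and each of these 9 genes was itself higher in D2. Alad and Hdhd3 correlated at r = 0.693 over the 64 columns, but at -0.301 over the 32 columns of B6 and 0.265 over the 32 of D2. The pooled columns hold the strain difference of both genes.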

How the data were processed

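Per the methods of the study, the authors aligned the RNA libraries in Cell Ranger 6.0.2, keeping introns, and the ATAC libraries in Cell Ranger ATAC 2.0.0, to mm10 for B6 and to mm10 with D2 single-base variants for D2. Peaks were called per sample with MACS and merged. The deposited values are raw counts summed per cell type and library, from nuclei filtered and cleared of doublets with DoubletFinder, and the table of nuclei per library is also a count. Cell types are those of the authors, called in Seurat 4.0.5. Tables number libraries 2 and 3 and labels number replicates 1 and 2, so only the strain of each column was used. Both strains share an RNA count table with the same symbols, of which 8204 had counts only in D2 and 960 only in B6. Of the 24 samples, 16, of methylation, were not analysed here.

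Counts were fitted with edgeR 4.0.16 (TMM, quasi-likelihood F test, filterByExpr for genes, at least 10 counts for peaks), D2 against B6, with Benjamini-Hochberg adjustment over all features and a threshold of 0.05. SE is the log2 fold divided by the root of F. DESeq2 1.42.0, other scalings and filters, each library left out and a block on library number were tried. Class contrasts used an interaction term with library as block. Scripts were tested on simulated data. R 4.3.3 and Python 3.11.15 were used.

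Libraries are pools of animals, 2 per strain. The edgeR p-values set the strain difference against a variance between libraries estimated with information shared over all features tested. They do not measure the spread of the 2 pools of a strain alone. RNA values were UMI counts and ATAC values were fragment counts per library, and intervals cover counting and library error only. Alad, Hdhd3 and the gene lists were chosen with earlier results of these data known. Named items were the 2 genes in each cell type, genes in the table within 500 kb, peaks within 2 kb, peaks next to a change in direction, haem enzymes, list members that were called (2 members of the haem lists are not reported here, nor counted), and the 5 most alike genes, among genes of at least 5 CPM and cell types of at least 200000 counts per library. Peaks of more than 2-fold further out were named after their values were seen.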

Additional observations from a re-analysis of the deposited data

How the results depend on the processing

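Alad and Hdhd3 RNA over all nuclei kept their direction and their call under each of 10 alternatives. The log2 fold ran from 1.88 to 1.97 for Alad and from 1.66 to 2.19 for Hdhd3. The 4 peaks within 2 kb were called under each alternative, 3 of them when only peaks over the gene bodies counted. Counts by cell type depended on settings. Types with Alad called were 9 with DESeq2 and 8 to 12 with a library left out, against 13. For Hdhd3 they were 3 with DESeq2 and 5 to 7 with a library left out, against 8. With DESeq2, 2 haem transport genes and 1 haloacid dehalogenase gene were called higher, 0 zinc and lead genes, 0 neighbouring genes higher and 1 lower, and 6 other peaks within 500 kb were called higher and 2 lower. With a library left out, 0 to 2 neighbouring genes were called higher (0 without D2 library 3, and 1 without either B6 library) and 2 to 3 lower, and 9 to 11 other peaks were called higher and 2 to 4 lower (2 without either D2 library). The Hdhd3 class contrast of non-neuronal cells and neurons ran from -0.27 (without B6 library 3) to 0.75, and that of Alad from -0.54 to -0.0018, with no call. The alternatives for neighbouring genes, for the other peaks within 500 kb and for the outermost of the 5 peaks were chosen after seeing the data. The cause of these changes was not tested. Of 230 single values by cell type, 31 lost their call, 2 gained one and none changed sign.

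Library numbers do not pair the samples by the labels, and deviations of same-numbered libraries correlated at -0.0055 over 13121 genes and -0.029 over 43826 peaks. With the replicate block, the log2 fold was 1.93 for Alad and 1.91 for Hdhd3, and 13 and 8 cell types were called. The 4 peaks stayed called, and 13 other peaks were called higher. Depth limits the types with few counts, and in NN-MGC, CR-CR and Exc-Cdh12 3 or fewer B6 counts of Alad were found.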
